A study of Mus musculus with 3 samples.

Results

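The genes described here are 10 genes of the transforming growth factor beta (TGF-beta) system, chosen by name: the ligand genes Tgfb1, Tgfb2 and Tgfb3, the receptor genes Tgfbr1 and Tgfbr2, the latency genes Ltbp1, Ltbp2 and Ltbp3, and the responsive genes Tgfbi and Smad7. All 10 were found by symbol among the 27179 genes of the table. They were followed in mouse bone marrow stromal cells (labelled WT) cultured at 3% oxygen and given extracellular vesicles, membrane particles that cells release, for 3 days before messenger RNA sequencing. Crosses of CAGS-Snorkel mice with Ocn-Cre mice, whose Cre is driven in mature osteoblasts, gave the Ocn-EV vesicles. Crosses of CAGS-Snorkel mice with Prx1-Cre mice, whose Cre is driven in limb bud mesenchyme and the cells that derive from it, gave the Prx1-EV vesicles. The control vesicles, All-EV, were from wild-type mice. All mice were C57BL/6N and 6 months old, and the bone marrow plasma of 5 mice (2 males and 3 females) was pooled for each vesicle preparation, which is described as captured with an HA antibody. The sources do not state how such a capture retained vesicles of wild-type mice.

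Each treatment was sequenced as 1 library. The values below therefore lack a check against replicates and carry no p-value, and "higher" and "lower" compare single libraries. Bracketed ranges are 95% exact intervals that cover counting error only. Levels are deposited normalized counts (reads assigned to a gene, divided by 1 size factor per library), and ratios are log2((a + 1)/(b + 1)) of those levels. A gene is called higher or lower when the ratio is at least 2-fold, and genes are counted as tested when their level averages 50 or more. Although the cells are labelled stromal, all 15 genes of a macrophage list had more than 20 reads in every library. Of the 15 genes of a stromal list, 11 had more than 20 reads in each library, but not the same 11. Pdgfra had 60 reads with Ocn-EV and 21 with Prx1-EV, against 12 with All-EV. Dcn had 3 reads with Ocn-EV and 3 with Prx1-EV, against 23 with All-EV. Lum and Lepr had at most 16 reads in any library.

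TGF-beta ligands are made as precursors whose propeptide stays wrapped around the mature dimer. This latent complex is bound to a latent TGF-beta binding protein (LTBP), which anchors it in fibrillin and fibronectin matrix until integrins, proteases or thrombospondin free the ligand. Free ligand binds the type II receptor, encoded by Tgfbr2, which activates the type I receptor, encoded by Tgfbr1, and SMAD proteins then carry the signal to the nucleus. In bone marrow, TGF-beta stored in matrix is known for its roles in the recruitment and differentiation of stromal and osteoblast lineage cells.

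The clearest difference was in a few members of the system. With either Ocn-EV or Prx1-EV, Tgfb3, Tgfb2 and Ltbp1 were 4.86-fold to 8.94-fold higher than with All-EV, while the most abundant ligand gene, Tgfb1, and both receptor genes were less than 2-fold apart. To show the sequence upstream of these transcripts, up to 250 bases before their annotated starts are given for Tgfb2 and for both starts of Ltbp1, which were higher with both vesicle preparations, and for Tgfb1, which was not 2-fold apart. Sequences are from RefSeq (GRCm38.p6, the build also called mm10), read 5′ to 3′ on the strand of the gene. Capitals mark matches, on either strand, to any of 7 short motifs whose letters follow the sequences, so that GTCTG is CAGAC on the other strand and CCGCCC is GGGCGG.
Tgfb2 (chr1:186705990-186706239, minus strand): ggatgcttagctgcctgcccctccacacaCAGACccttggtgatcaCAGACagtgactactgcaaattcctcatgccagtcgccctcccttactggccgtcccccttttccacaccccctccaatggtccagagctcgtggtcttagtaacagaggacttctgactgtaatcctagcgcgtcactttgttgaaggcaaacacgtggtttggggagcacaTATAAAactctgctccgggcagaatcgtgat
Ltbp1, first start (chr17:75005279-75005479, plus strand): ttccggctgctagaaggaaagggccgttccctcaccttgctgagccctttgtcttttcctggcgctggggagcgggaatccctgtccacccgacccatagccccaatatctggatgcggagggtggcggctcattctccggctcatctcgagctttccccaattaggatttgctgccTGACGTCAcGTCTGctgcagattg
Ltbp1, second start (chr17:75178531-75178780, plus strand): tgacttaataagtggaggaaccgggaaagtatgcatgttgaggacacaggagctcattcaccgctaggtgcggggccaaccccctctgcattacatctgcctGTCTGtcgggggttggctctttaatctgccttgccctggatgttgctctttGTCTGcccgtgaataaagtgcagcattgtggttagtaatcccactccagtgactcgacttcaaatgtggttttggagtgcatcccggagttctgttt
Tgfb1 (chr7:25686752-25687001, plus strand): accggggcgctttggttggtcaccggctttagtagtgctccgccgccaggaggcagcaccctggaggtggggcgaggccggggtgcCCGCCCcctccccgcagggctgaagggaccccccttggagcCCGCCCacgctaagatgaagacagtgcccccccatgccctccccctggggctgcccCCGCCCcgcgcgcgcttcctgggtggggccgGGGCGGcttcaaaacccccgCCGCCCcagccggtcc

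No exon of the gene itself lay in these windows in the GENCODE annotation. The Tgfb2 window lay inside the RefSeq span of the gene, which reaches farther upstream, and overlapped an exon of the antisense gene Gm29491. The bases after the first Ltbp1 start were in no GENCODE transcript of the gene, and the second Ltbp1 window lay in an intron of the long Ltbp1 transcripts. The first Ltbp1 window is given only as far as the edge of the gene, 201 bases. Tgfb2 held a TATA box, TATAAA, that began 31 bases before the start, a motif found in 12.4% of the 32851 mouse promoter windows of 250 bases, and the short SMAD motif CAGAC at 2 positions, found in 42.2% of windows. The first Ltbp1 start held the cAMP response element TGACGTCA 73 bases before it, found in 1.55% of windows, and CAGAC on the other strand 64 bases before it. The second Ltbp1 start held CAGAC on the other strand at 2 positions. The Tgfb1 window held 5 matches to the GC box GGGCGG and none of the other motifs. The GC box was found in 32.7% of all windows. No marked match overlapped another. None of the 4 windows held the full SMAD box GTCTAGAC, found in 0.167% of windows. The same was true of the AP-1 site TGANTCA, found in 6.75% of windows, and of the TEAD site GGAATG, found in 12.6%. A match describes letters in a window and is no evidence of binding, and a missing match says only that these letters are not there. The files count reads per gene, so the 2 starts of Ltbp1, which give a long and a short protein, cannot be told apart in the levels.

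The largest ratios were those of 2 ligand genes. Tgfb3, on chromosome 12 (86056743 to 86079041), which encodes the ligand isoform best known from palate and mesenchymal development, stood at 2135 with Ocn-EV and 1887 with Prx1-EV, against 239 with All-EV. Both treated libraries lay far above the control library and close to each other. The log2 ratio to All-EV was 3.16 (2.96 to 3.37) with Ocn-EV, an 8.94-fold difference, and 2.98 (2.78 to 3.19) with Prx1-EV, a 7.90-fold difference. In bulk RNA, fewer cells of a type and less RNA per cell cannot be told apart. Of the 11067 tested genes, only 27 had a higher ratio of Ocn-EV to All-EV and only 22 a higher ratio of Prx1-EV to All-EV.

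Tgfb2, the isoform whose propeptide lacks the integrin-binding motif of the other two, was the least abundant member and lies on chromosome 1 (186622787 to 186709697). It stood at 377 with Ocn-EV (364 reads) and 291 with Prx1-EV (334 reads), against 60.0 with All-EV (53 reads). The order of the libraries was the same as for Tgfb3. The log2 ratio to All-EV was 2.63 (2.23 to 3.10) with Ocn-EV, a 6.28-fold difference, and 2.26 (1.86 to 2.73) with Prx1-EV, a 4.86-fold difference. These are the widest intervals among the members. Tgfb2 overlaps the antisense gene Gm29491 at its start, and the use of strand in counting is unstated.

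Tgfb1, the isoform made by most blood and marrow cells, stood at 3656 with Ocn-EV and 3630 with Prx1-EV, against 3231 with All-EV. The 3 libraries were nearly level. Its log2 ratios of 0.18 (0.11 to 0.25) with Ocn-EV and 0.17 (0.10 to 0.24) with Prx1-EV were larger than counting error and far under 2-fold, and 3833 of the 11067 tested genes had a higher ratio of Ocn-EV to All-EV.

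**Figure D1:**
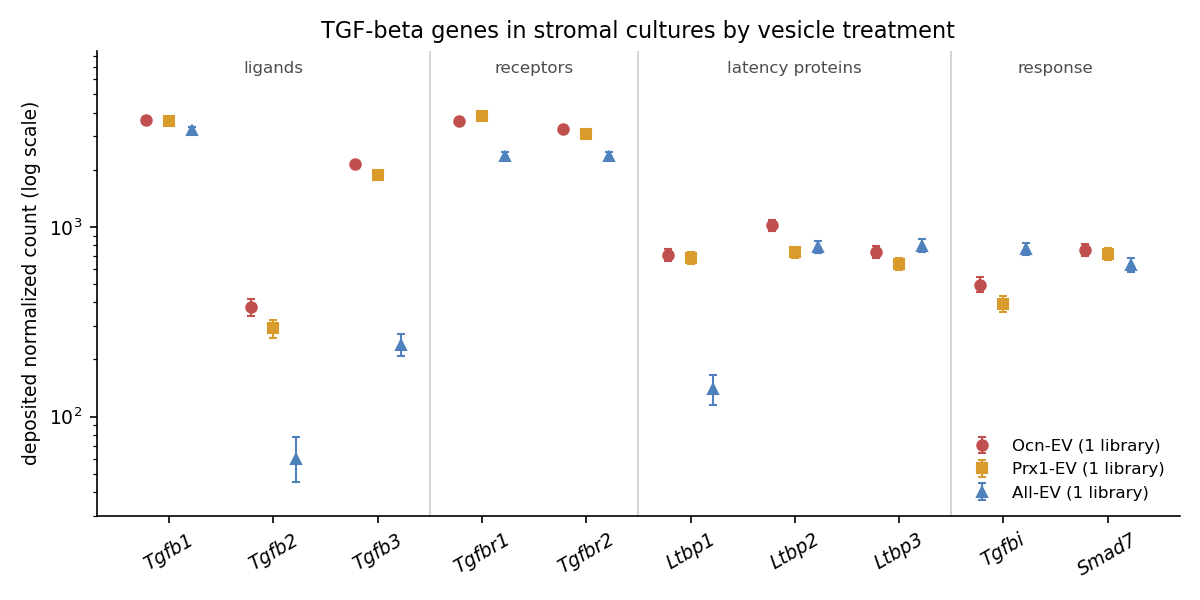
Deposited normalized count of each of the 10 genes (log scale) in the Ocn-EV, Prx1-EV and All-EV libraries, 1 library each, with bars for 95% exact counting intervals. Tgfb2, Tgfb3 and Ltbp1 stand well below the other 2 libraries in All-EV, whereas Tgfb1 lies between 3231 and 3656 in all 3.

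The make-up of the ligand transcripts also differed. Per length, as TPM (reads per length of the longest annotated transcript, scaled to one common total in each library), the ligand genes summed to 402 with Ocn-EV and 376 with Prx1-EV, against 190 with All-EV. These sums depend on the common total, on which Tgfb1 alone stood at 268.5 TPM with Ocn-EV, against 178 TPM with All-EV, while the shares within a library do not. Tgfb3 made up 29.7% of this ligand TPM with Ocn-EV and 27.5% with Prx1-EV, against 5.28% with All-EV. Tgfb2 made up 3.47% with Ocn-EV and 2.81% with Prx1-EV, against 0.876% with All-EV. The remainder was Tgfb1, at 66.8% with Ocn-EV and 69.7% with Prx1-EV, against 93.8% with All-EV. In unadjusted reads, Tgfb3 took 34.6% (33.4 to 35.8) of the 5957 ligand reads with Ocn-EV and 32.5% (31.4 to 33.6) of 6658 with Prx1-EV, against 6.76% (5.91 to 7.70) of 3119 with All-EV.

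**Figure D2:**
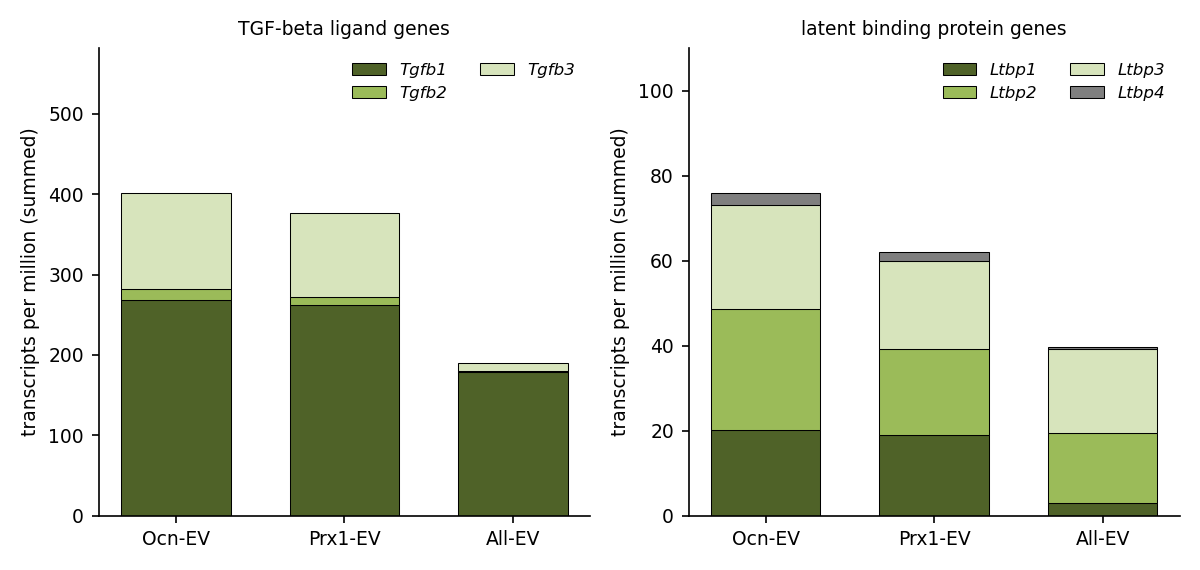
Summed TPM of the TGF-beta ligand genes (left) and of the latent binding protein genes (right) in the Ocn-EV, Prx1-EV and All-EV libraries, 1 library each, with the part of each gene shaded. The Tgfb3 part of the ligand bar is 29.7% of its height in Ocn-EV, 27.5% in Prx1-EV and 5.28% in All-EV, and the Ltbp1 part of the other bar is 26.6% in Ocn-EV, 30.7% in Prx1-EV and 7.45% in All-EV.

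The receptor genes were moderately higher with both vesicle preparations. Tgfbr1, the type I receptor kinase, stood at 3614 with Ocn-EV and 3844 with Prx1-EV, against 2373 with All-EV. Its log2 ratios were 0.61 (0.53 to 0.69) with Ocn-EV and 0.70 (0.62 to 0.77) with Prx1-EV. Tgfbr2, the ligand-binding type II receptor kinase, stood at 3282 with Ocn-EV and 3080 with Prx1-EV, against 2380 with All-EV. Its log2 ratios were 0.46 (0.38 to 0.54) with Ocn-EV and 0.37 (0.29 to 0.45) with Prx1-EV. Neither receptor gene reached 2-fold, and both lay above All-EV in each comparison under every scaling tried. With a fitted trend on length and GC content of transcripts removed, the Tgfbr2 ratios were 0.26 with Ocn-EV and 0.15 with Prx1-EV.

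Of the 3 latency members, only Ltbp1 was called higher. The related gene Ltbp4, not a member, was also called higher in both comparisons, at a low level. It stood at 82.8 with Ocn-EV and 64.6 with Prx1-EV, against 23.8 with All-EV. Its log2 ratios were 1.76 (1.09 to 2.57) with Ocn-EV and 1.40 (0.73 to 2.22) with Prx1-EV. Ltbp1, on chromosome 17 (75005480 to 75392512), which binds latent TGF-beta and places it in matrix, stood at 713 with Ocn-EV and 684 with Prx1-EV, against 139 with All-EV. The treated libraries did not differ from each other beyond counting error, and both stood clear of the control library. The log2 ratio to All-EV was 2.35 (2.08 to 2.65) with Ocn-EV and 2.29 (2.02 to 2.58) with Prx1-EV.

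Ltbp2, a fibrillin-like microfibril protein that does not bind latent TGF-beta, stood at 1019 with Ocn-EV and 734 with Prx1-EV, against 783 with All-EV. Its log2 ratio was 0.38 (0.24 to 0.52) with Ocn-EV. With Prx1-EV it was −0.09 (−0.24 to 0.05), and 0.13 with libraries set to equal totals. It was 0.06 with Ocn-EV and −0.39 with Prx1-EV once the trend was removed. The gene lies on chromosome 12 (84783212 to 84876558), 1.18 Mb from Tgfb3, but the ratios of the 2 genes to All-EV were unlike.

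Ltbp3, which also carries latent TGF-beta and is needed for normal bone turnover in mice, stood at 740 with Ocn-EV and 639 with Prx1-EV, against 798 with All-EV. Its log2 ratios were −0.11 (−0.26 to 0.04) with Ocn-EV and −0.32 (−0.47 to −0.17) with Prx1-EV, and the ratio with Ocn-EV was 0.15 with libraries set to equal totals. Its reads are less certain than those of the other members, since the use of strand in counting is unstated. Per length, Ltbp1 made up 26.6% of the TPM of the 4 LTBP genes (the members and Ltbp4) with Ocn-EV and 30.7% with Prx1-EV, against 7.45% with All-EV.

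The responsive genes lay on either side of All-EV and were not called in either comparison. Tgfbi, a secreted matrix adhesion protein named for its induction by TGF-beta and also made by macrophages, stood at 495 with Ocn-EV and 392 with Prx1-EV, against 766 with All-EV. Its log2 ratio was −0.63 (−0.80 to −0.46) with Ocn-EV, or 1.55-fold lower, and −0.97 (−1.14 to −0.79) with Prx1-EV, or 1.96-fold lower. The Prx1-EV value lay just inside 2-fold, and just outside it (−1.02) with the length and GC trend removed. Smad7, the inhibitory SMAD that is itself induced by the pathway and shuts off the type I receptor, stood at 759 with Ocn-EV and 720 with Prx1-EV, against 633 with All-EV. Its log2 ratios were 0.26 (0.10 to 0.42) with Ocn-EV and 0.19 (0.03 to 0.34) with Prx1-EV, and with the length and GC trend removed 0.05 with Ocn-EV and 0.01 with Prx1-EV.

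Across the 10 genes, 3 exceeded All-EV at least 2-fold in the Ocn-EV library and 0 were lower by that amount. Of all 11067 tested genes, 6.27% were higher by that amount and 4.2% lower. With Prx1-EV, 3 of 10 were again higher and 0 lower, where 5.12% of all tested genes were higher and 3.66% lower. The 3 genes were Tgfb2, Tgfb3 and Ltbp1 in both comparisons, which share the All-EV library and are therefore not independent. The members were chosen with earlier results of these data known, so the counts beside these shares describe them and test nothing. At 1.5-fold, 4 members were higher and 1 lower in each comparison. The 1.5-fold background with Ocn-EV was 13.8% of tested genes higher and 13.6% lower, and with Prx1-EV it was 12.7% in each direction. The members' median log2 ratio was 0.42 with Ocn-EV and 0.28 with Prx1-EV, where the median over all tested genes was −0.02 with Ocn-EV and 0.00 with Prx1-EV.

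**Figure D3:**
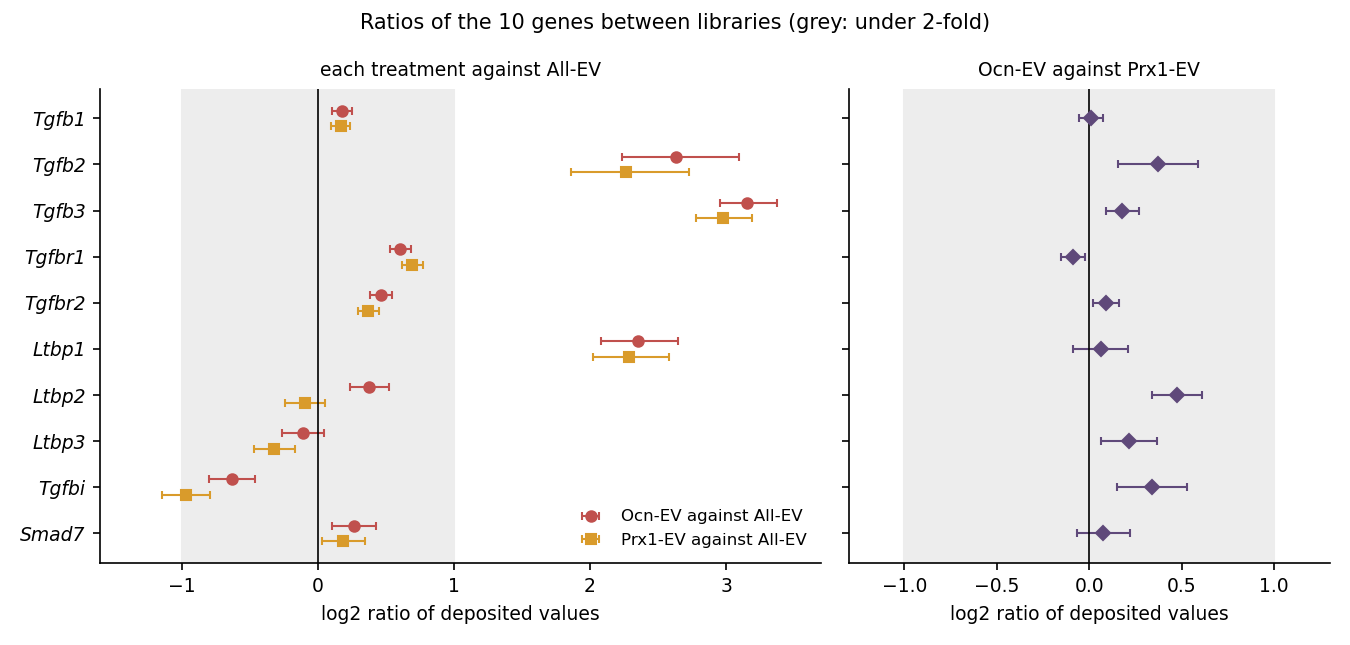
Log2 ratios of the 10 genes with 95% exact counting intervals, for Ocn-EV and Prx1-EV against All-EV (left) and for Ocn-EV against Prx1-EV (right), with ratios under 2-fold on a grey ground. Tgfb3, Tgfb2 and Ltbp1 lie between 2.26 and 3.16 on the left, the others within 2-fold, and no gene leaves the grey ground on the right.

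The Ocn-EV and Prx1-EV libraries were compared next. None of the 10 genes was 2-fold apart, where 0.325% of all tested genes were higher and 0.19% lower by that amount with Ocn-EV. The ratios of Ocn-EV to Prx1-EV ran from −0.09 (−0.15 to −0.02) for Tgfbr1 to 0.47 (0.34 to 0.61) for Ltbp2. Tgfb2 stood at 0.37 (0.15 to 0.59), Tgfbi at 0.34 (0.15 to 0.53) and Tgfb3 at 0.18 (0.09 to 0.27), each higher with Ocn-EV by more than counting error. Tgfb1 (0.01, −0.05 to 0.08), Ltbp1 (0.06, −0.09 to 0.21) and Smad7 (0.08, −0.07 to 0.22) were within it. Counting intervals leave out variation between cultures, so these small differences have no check.

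Within a library the order of the members per length also shifted. In All-EV, Tgfb1 (178 TPM), Tgfbr1 (58.5 TPM), Tgfbr2 (41.8 TPM) and Tgfbi (36.2 TPM) led, while Tgfb3 (10.02 TPM), Ltbp1 (2.96 TPM) and Tgfb2 (1.67 TPM) came last. In Ocn-EV, Tgfb1 (268.5 TPM) led as well, but Tgfb3 (119 TPM) came next and did not differ from Tgfbr1 (119 TPM) beyond counting error. In Prx1-EV, Tgfb3 (104 TPM) came after Tgfb1 (262 TPM) and Tgfbr1 (124 TPM). Tgfb2 was last in every library, at 13.9 TPM with Ocn-EV and 10.6 TPM with Prx1-EV. With Ocn-EV, counting error also left Tgfbi unseparated from its neighbours in the order, Smad7 and Ltbp2. With Prx1-EV it left Tgfbi unseparated from Ltbp3, and Ltbp3, Ltbp2 and Ltbp1 from each other. With All-EV it left Smad7 unseparated from Ltbp3.

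The levels of cell type markers moved beside these results. The libraries held 14233978 (Ocn-EV), 17269204 (Prx1-EV) and 15558165 (All-EV) reads assigned to genes. The macrophage list took 1.09% of reads with Ocn-EV and 0.927% with Prx1-EV, against 1.42% with All-EV. Much of this was 1 gene, Lyz2, with 49971 of 155079 list reads with Ocn-EV and 46480 of 160078 with Prx1-EV. With All-EV it held 123980 of 221289. Of the 15 macrophage genes, 9 had a log2 ratio to All-EV above 0 in each comparison. The stromal list took 0.636% with Ocn-EV and 0.417% with Prx1-EV, against 0.102% with All-EV. Most of these reads came from 2 collagen genes, Col1a1 and Col1a2. They held 43442 and 24577 of 90524 list reads with Ocn-EV, and 34847 and 19063 of 72025 with Prx1-EV. With All-EV they held 6946 and 4061 of 15918. The stromal proteoglycan gene Lum was at 0 reads in all 3 libraries, and the stromal receptor gene Lepr had 16 reads with Ocn-EV and 13 with Prx1-EV, against 11 with All-EV. A smooth muscle and pericyte list took 0.195% with Ocn-EV and 0.181% with Prx1-EV, against 0.0592% with All-EV. An osteoblast list took 0.32% with Ocn-EV and 0.208% with Prx1-EV, against 0.0469% with All-EV. Nearly all of these reads were Col1a1, which is also in the stromal list, so the 2 shares overlap. Col1a1 held 43442 of 45581 osteoblast list reads with Ocn-EV, 34847 of 35889 with Prx1-EV and 6946 of 7295 with All-EV. Of the 9 tested stromal markers, 8 were 2-fold or more above All-EV in the Ocn-EV library (median log2 2.06, from 0.53 for Thy1 to 2.93 for Col5a1) and 6 in the Prx1-EV library (median 1.55, from 0.41 to 2.26). All 7 tested smooth muscle markers were so in both (median 1.74 with Ocn-EV and 1.67 with Prx1-EV). Of the 5 tested osteoblast markers, 4 were so in both (median 2.69 with Ocn-EV and 1.82 with Prx1-EV). The share of all tested genes that was 2-fold higher was 6.27% with Ocn-EV and 5.12% with Prx1-EV. The Tgfb3 ratios of 3.16 with Ocn-EV and 2.98 with Prx1-EV lay above those of the tested stromal markers but not above those of all markers. Ibsp, an osteoblast matrix gene, had 5.55 with Ocn-EV and 3.28 with Prx1-EV, the osteoblast factor gene Sp7 had 3.63 with Ocn-EV, and the smooth muscle myosin gene Myh11 had 3.04 with Prx1-EV. With Ocn-EV the Tgfb2 and Ltbp1 ratios lay between the stromal median and maximum, and with Prx1-EV they lay at or just above that maximum. The part of stromal, osteoblast, smooth muscle, macrophage or neutrophil content in the differences of Tgfb2, Tgfb3 and Ltbp1 was not tested. Genes of megakaryocytes and platelets, which store TGF-beta protein, took 0.0128% of reads with Ocn-EV and 0.0109% with Prx1-EV, against 0.0604% with All-EV, nearly all Pf4, with Gp9 and Gp6 at 0 reads in each library. A neutrophil list took 0.00577% with Ocn-EV and 0.00673% with Prx1-EV, against 0.0513% with All-EV, mostly Mmp8, with Ly6g, Elane and Ltf at 0 reads in each library.

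**Figure D4:**
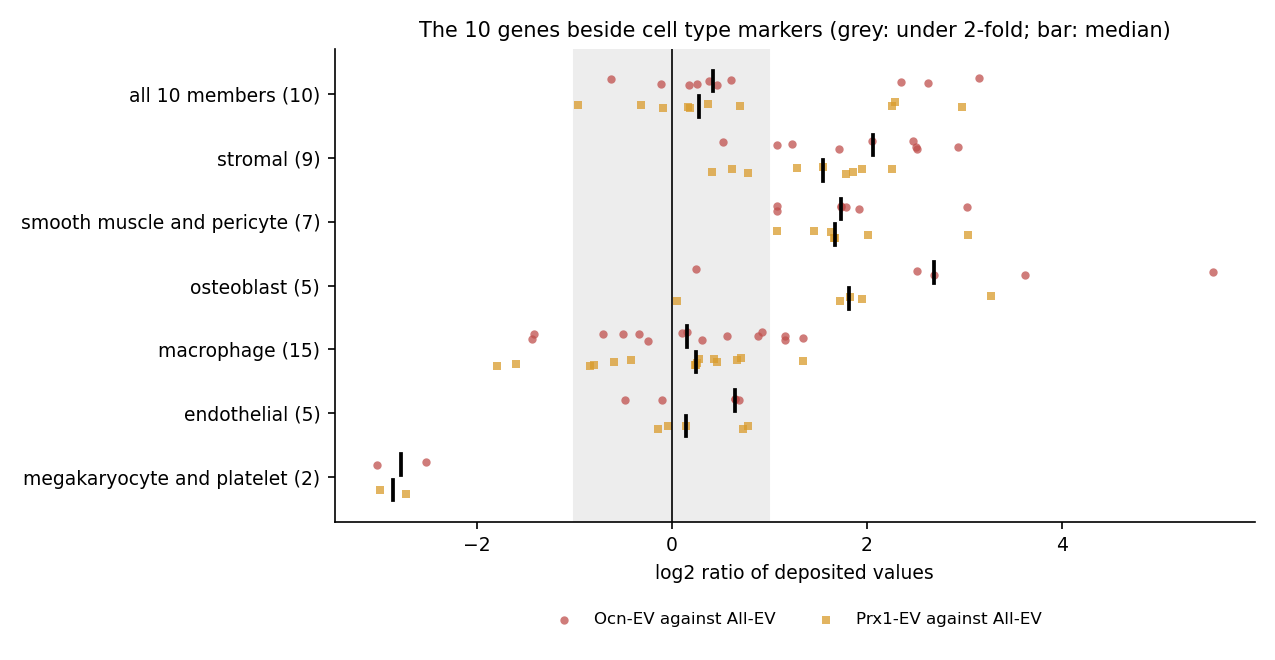
Log2 ratios to All-EV of the 10 genes and of tested cell type markers (number in brackets), for Ocn-EV (circles) and Prx1-EV (squares), with bars for medians and ratios under 2-fold on a grey ground. The stromal median is 2.06 with Ocn-EV and 1.55 with Prx1-EV, and the macrophage median is 0.16 with Ocn-EV and 0.24 with Prx1-EV.

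The other genes of the pathway were grouped by role. Among accessory receptors, 7 of 8 were tested, and 2 were called higher with Ocn-EV and 1 with Prx1-EV (medians 0.31 with Ocn-EV and 0.25 with Prx1-EV), with 0 lower. Of all tested genes, 6.27% were called higher and 4.2% lower with Ocn-EV, and 5.12% higher and 3.66% lower with Prx1-EV. Vasn, which encodes the TGF-beta-binding protein vasorin, stood at 588 with Ocn-EV and 499.9 with Prx1-EV, against 248 with All-EV. Eng, the co-receptor endoglin, stood at 689.6 with Ocn-EV and 547 with Prx1-EV, against 317 with All-EV, and was called with Ocn-EV. Its log2 ratio with Ocn-EV was 0.96 with the trend removed, and with Prx1-EV it was 1.01 with equal totals. The Vasn ratio with Prx1-EV was 1.01, and 0.93 with the trend removed, so these calls depend on the setting. The type I receptor gene Acvrl1 had log2 ratios of −0.38 with Ocn-EV and −0.44 with Prx1-EV. The decoy receptor gene Bambi had 0.51 with Ocn-EV and 0.25 with Prx1-EV.

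Of 21 genes for SMADs and their regulators, 19 were tested, and 0 were called with either vesicle preparation (medians 0.15 with Ocn-EV and 0.03 with Prx1-EV). Over all tested genes the called share was 6.27% higher and 4.2% lower with Ocn-EV, and 5.12% higher and 3.66% lower with Prx1-EV, and against those shares 0 of 19 is no result about the list. With the trend removed, Usp15 (−1.01) and Smurf1 (−1.06) passed 2-fold with Ocn-EV, and with equal totals Ldlrad4 (1.04) did. Farthest from 0 was the deubiquitinase gene Usp15, at log2 −0.91 (−1.02 to −0.81) with Ocn-EV and −0.80 (−0.89 to −0.70) with Prx1-EV. Smurf1, a ubiquitin ligase that marks SMADs and receptors for breakdown, stood at −0.82 with Ocn-EV and −0.69 with Prx1-EV. The corepressor gene Tgif1 stood at −0.47 with Ocn-EV and −0.41 with Prx1-EV. Ldlrad4, a feedback inhibitor of SMAD activation, stood at 0.78 with Ocn-EV (0.43 to 1.16) and 0.07 with Prx1-EV (−0.31 to 0.46).

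Genes that store or release the latent complex were spread widely. Of 26 genes, 21 were tested, with 8 called higher and 2 lower with Ocn-EV, and 5 higher and 1 lower with Prx1-EV (medians 0.31 with Ocn-EV and 0.37 with Prx1-EV). The called shares of all tested genes were 6.27% higher and 4.2% lower with Ocn-EV, and 5.12% higher and 3.66% lower with Prx1-EV. Thbs1, the thrombospondin known to activate latent TGF-beta, stood at 36994 with Ocn-EV and 28992 with Prx1-EV, against 7741 with All-EV, or log2 2.26 (2.22 to 2.29) with Ocn-EV and 1.90 (1.87 to 1.94) with Prx1-EV. Lrrc32, which encodes GARP, a membrane anchor of latent TGF-beta, stood at 1514 with Ocn-EV (3.61-fold higher) and 1310 with Prx1-EV (3.12-fold higher), against 420 with All-EV. Htra3, a secreted protease that inhibits TGF-beta signalling, had log2 ratios of 2.16 (1.71 to 2.70) with Ocn-EV and 1.36 (0.88 to 1.90) with Prx1-EV. At the other end, Mmp9, a gelatinase able to release latent ligand, stood at 39.3 with Ocn-EV (72.8-fold lower) and 52.3 with Prx1-EV (54.7-fold lower), against 2865 with All-EV. Some myeloid genes moved the same way and others did not. The neutrophil collagenase gene Mmp8 was 10.7-fold lower with Ocn-EV and 8.91-fold lower with Prx1-EV. The macrophage list genes Lyz2 and Itgam were 2.71-fold and 2.67-fold lower with Ocn-EV and 3.46-fold and 3.03-fold lower with Prx1-EV. They were the only 2 of the 15 macrophage list genes called lower. Called higher were 3 with Ocn-EV and 1 with Prx1-EV, and 9 of 15 lay above 0 in each comparison. The part of myeloid content in the Mmp9 difference was not tested.

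Few of the matrix proteoglycans that bind TGF-beta were abundant, and 2 of 5 were tested. Fmod, fibromodulin, stood at 3090 with Ocn-EV and 1982 with Prx1-EV, against 373 with All-EV, with log2 ratios of 3.05 with Ocn-EV and 2.40 with Prx1-EV. Bgn, biglycan, had log2 ratios of 1.17 with Ocn-EV and 0.87 with Prx1-EV, or 1.09 with Prx1-EV at equal totals. The others were low. Aspn, which encodes the TGF-beta inhibitor asporin, had 59 reads with Ocn-EV and 32 with Prx1-EV, against 1 with All-EV, so that its log2 interval ran from 3.22 to 11.08 with Ocn-EV and from 2.04 to 9.97 with Prx1-EV. Dcn, decorin, had 3 reads with Ocn-EV and 3 with Prx1-EV, against 23 with All-EV.

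Target genes known from the literature came last. Of 32 genes known to respond to TGF-beta in mesenchymal cells, 29 were tested. At least 2-fold higher were 17 with Ocn-EV and 13 with Prx1-EV, and 0 were lower (medians 1.27 with Ocn-EV and 0.95 with Prx1-EV). Over all tested genes 6.27% were higher and 4.2% lower with Ocn-EV, and 5.12% higher and 3.66% lower with Prx1-EV. The genes farthest from 0 were collagen genes and a collagen receptor. With Ocn-EV the log2 ratio was 2.52 for Col1a1, 2.47 for Col1a2 and 2.51 for Col3a1, and with Prx1-EV it was 1.95 for Col1a1, 1.86 for Col1a2 and 1.79 for Col3a1. The integrin gene Itga11 was 4.31-fold higher with Ocn-EV and 3.47-fold higher with Prx1-EV. Of the tested targets, 7 are also stromal, smooth muscle or osteoblast markers, and all 7 were 2-fold higher in both comparisons. Among the other 22, a division made after the values were seen, 10 were 2-fold higher with Ocn-EV and 6 with Prx1-EV (medians 0.85 with Ocn-EV and 0.42 with Prx1-EV), and 0 were lower. Ccn2, a textbook target named here after its values were seen, had log2 ratios of 1.39 with Ocn-EV and 1.32 with Prx1-EV. Not all targets lay on that side: of the 29 tested, 25 lay above 0 and 4 below in each comparison. Among those below was Junb, at −0.40 with Ocn-EV and −0.58 with Prx1-EV. Many genes of the list also respond to other signals, and the list was chosen with earlier results of these data known.

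**Figure D5:**
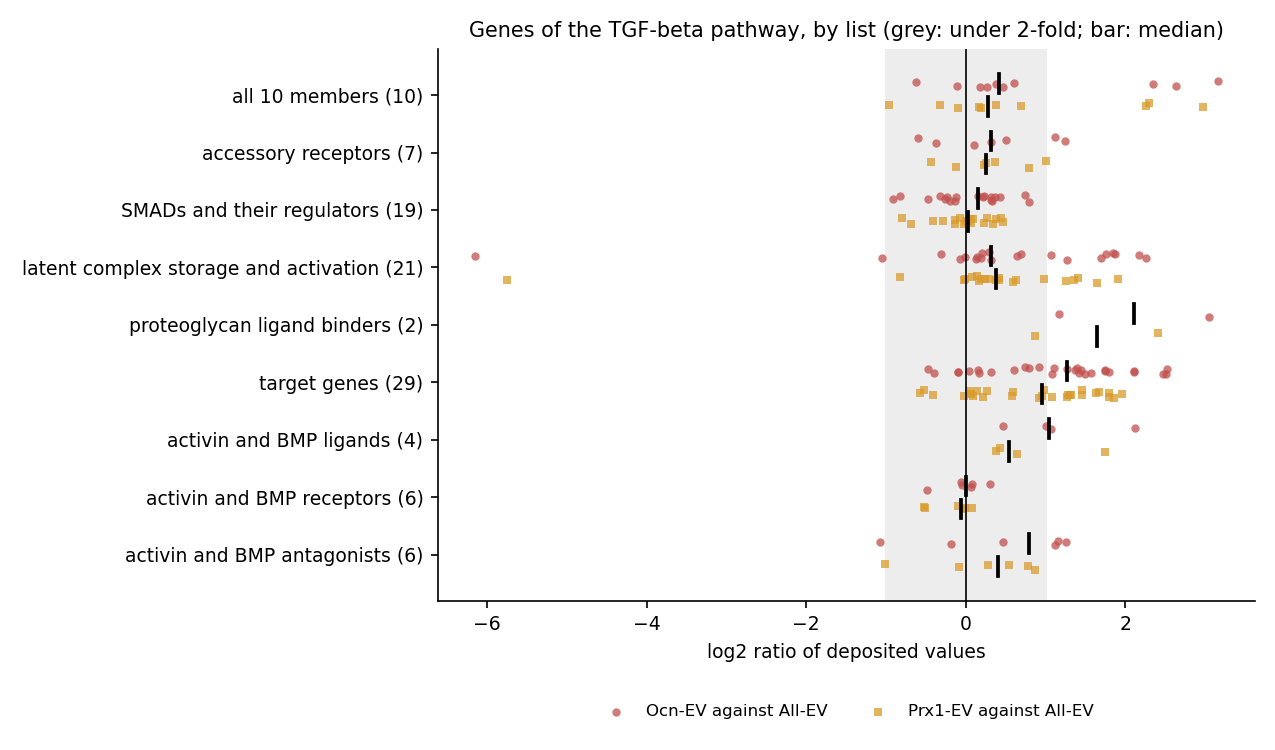
Log2 ratios to All-EV of the 10 genes and of the tested genes of each pathway list (number in brackets), for Ocn-EV (circles) and Prx1-EV (squares), with bars for medians and ratios under 2-fold on a grey ground. Target genes have medians of 1.27 with Ocn-EV and 0.95 with Prx1-EV, SMAD genes stay within 2-fold as deposited, and Mmp9 stands alone at −6.15 with Ocn-EV and −5.75 with Prx1-EV.

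The genes whose pair of ratios to All-EV lay nearest to each ligand gene, by Euclidean distance over 3 libraries, were Igfbp2 (distance 0.02), Oas1b (0.06) and Tlr9 (0.07) for Tgfb3. Igfbp2, an insulin-like growth factor binding protein, stood at 141 with Ocn-EV and 123 with Prx1-EV, against 14.7 with All-EV. For Tgfb2 they were the Wnt pathway gene Nkd2 (0.10), Lurap1l (0.10) and the interferon-induced gene Cmpk2 (0.11). For Tgfb1, whose ratios lie where genes are dense, they were Zfp644, Kitl and Lasp1, all within 0.01. Likeness over 3 libraries is a description of these values only.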

How the data were processed

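A single culture per vesicle treatment was sequenced, from 100 ng of RNA with reads of 150 bases in pairs, per the labels' protocols. Each deposited value is a signal, a read count that the authors normalized per library. Genome build mm10 and the tools DESeq2 2.11.40.8 (a number in the form of a workflow wrapper's), featureCounts 2.0.3, HISAT2 2.2.1, Trimmomatic 0.38.1 and FastQC 0.74 are named per the submitters' processing notes, with neither order nor settings. In each library 100% of values were whole multiples of the value of 1 read (1.04 in Ocn-EV, 0.872 in Prx1-EV and 1.13 in All-EV, tolerance 1e-06), and reads were recovered by that division.

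Symbols came from RefSeq GRCm38.p6 and matched 25275 of 27179 identifiers. A mean of at least 50 over the libraries was required for background counts, lists and medians (11067 genes). All 10 members passed, the lowest with a mean of 243. Ratios used a pseudocount of 1, which pulls low genes toward 0, and folds are plain ratios. Intervals of ratios and shares are Clopper-Pearson at 95%, and those of levels are exact Poisson. Without molecular identifiers, PCR copies count as separate reads. TPM used the longest GENCODE transcript per gene, which understates genes whose shorter forms are used. With 1 library per group no test was possible. The members, lists and rules were chosen with earlier results of these data known. All members were named. Of each pathway list, the 4 tested genes farthest from 0 by the mean of both ratios to All-EV were named. The calculations were tested on simulated data. Some results are not reported here. Python 3.11.15, scipy 1.17.1 and edgeR 4.0.16 (for TMM factors) were used. Other scalings, pseudocounts, filters, folds and removal of a length and GC trend were tried.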

Additional observations from a re-analysis of the deposited data

How the results depend on the processing

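The calls of Tgfb2, Tgfb3 and Ltbp1 held under each scaling, pseudocount and filter tried, with the trend on length and GC taken out, and at 3-fold, with log2 ratios between 2.04 and 3.41. Of 36 alternative values of these ratios, 34 stayed within their counting interval, and the others were Tgfb3 with libraries set to equal totals (3.41 with Ocn-EV and 3.20 with Prx1-EV). That setting moved the median over every tested gene to 0.24 (Ocn-EV to All-EV) and 0.22 (Prx1-EV to All-EV). Of genes 2-fold apart it put 81.8% (59.9% as deposited) higher with Ocn-EV and 79.7% (58.3% as deposited) with Prx1-EV. It put the members' median at 0.68 with Ocn-EV and 0.50 with Prx1-EV. With Ocn-EV the list medians under it were 0.41 for SMADs, 0.57 for latent complex genes, 2.36 for proteoglycans, 1.53 for targets, and 1.29, 0.26 and 1.04 for activin and BMP ligands, receptors and antagonists. With Prx1-EV they were 0.25 for SMADs, 0.60 for latent complex genes, 1.86 for proteoglycans, 1.18 for targets and 0.76 for activin and BMP ligands. Taking out the length and GC trend gave members' medians of 0.22 with Ocn-EV and 0.15 with Prx1-EV, a latent complex median of 0.19 with Prx1-EV, and 1 member (Tgfbi) at least 2-fold lower with Prx1-EV. At 1.5-fold, 1 member was lower in each comparison with All-EV. With no filter, the latent complex median was 0.59 with Ocn-EV, and the activin and BMP ligand medians were 0.71 with Ocn-EV and 0.29 with Prx1-EV. The ligand median with Prx1-EV was 0.43 with filters of 10 and of 200, and the antagonist median with Ocn-EV was 0.14 with a filter of 200. The cause of these shifts was not tested, apart from filters changing which genes enter. No called value changed sign. Uncalled values did with equal totals: Ltbp3 and Acvr1 (0.21) with Ocn-EV, and Ltbp2, Acvr2a (0.13) and the activin and BMP receptor median (0.16) with Prx1-EV. Without the trend Acvr2b (−0.03) and that receptor median (−0.02) did with Ocn-EV, and Bmpr2 (−0.02) and the SMAD median (−0.10) with Prx1-EV. With Ocn-EV the SMAD median was −0.12 with a filter of 200, and the receptor median was −0.04 with that filter and −0.05 with none. Calls at 2-fold were lost without the trend for Eng and Bmp1 (0.81) with Ocn-EV and Vasn with Prx1-EV, and for Vasn also with a pseudocount of 5. Equal totals gave calls for Inhba (1.26) and Ldlrad4 with Ocn-EV, and for Eng, Bgn, Fstl1 (1.09) and Fstl3 (1.00) with Prx1-EV. Inhba with Ocn-EV also passed 2-fold with median-of-ratios size factors (1.02), with TMM factors (1.02) and with the trend removed (1.04). No paired analysis was possible because each group has 1 library, and no library could be left out. With 53 reads of Tgfb2 in All-EV, depth limits that ratio most.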

Other observations

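In a list of ligand genes of the activin and bone morphogenetic protein (BMP) branch of the family, 4 of 19 were tested. The list holds Bmp1 by its name, so that count and the ligand medians given above include a gene that is not a ligand. Inhbb, an activin subunit gene, stood at 156 with Ocn-EV and 120 with Prx1-EV, against 35.1 with All-EV (log2 2.12, 1.59 to 2.76, with Ocn-EV and 1.74, 1.20 to 2.38, with Prx1-EV). Inhba, the other activin subunit gene, stood at 1755 with Ocn-EV and 1370 with Prx1-EV, against 877 with All-EV. Its log2 ratios were 1.00 (0.88 to 1.12) with Ocn-EV, just short of a call as deposited, and 0.64 with Prx1-EV. The Ocn-EV ratio was past 2-fold under each other scaling tried (1.02 to 1.26). Bmp1, a procollagen protease and not a BMP ligand despite its name, had log2 ratios of 1.07 with Ocn-EV and 0.37 with Prx1-EV. The stress-responsive ligand gene Gdf15 had 0.47 with Ocn-EV and 0.43 with Prx1-EV. None of the 6 tested activin and BMP receptor genes was 2-fold apart with either vesicle preparation. Called shares of all tested genes were 6.27% higher and 4.2% lower with Ocn-EV, and 5.12% higher and 3.66% lower with Prx1-EV. Against those shares, none of 6 is no result about the receptor genes. The farthest from 0 by the mean of both ratios were Acvr2a, Acvr1, Acvr2b and Bmpr2. Acvr2a had log2 ratios of −0.49 with Ocn-EV and −0.09 with Prx1-EV.

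Antagonists moved in both directions. Grem1, the BMP antagonist gremlin, was the one tested antagonist more than 2-fold lower, at 151 with Ocn-EV and 157 with Prx1-EV, against 319 with All-EV (log2 −1.07 with Ocn-EV and −1.02 with Prx1-EV). That call is lost with equal totals (−0.82 with Ocn-EV and −0.80 with Prx1-EV) and with the length and GC trend taken out. The follistatin-like genes Fstl1 and Fstl3 had log2 ratios of 1.25 and 1.11 with Ocn-EV, and 0.87 and 0.78 with Prx1-EV. Nbl1, another BMP antagonist gene, stood at 183 with Ocn-EV and 119 with Prx1-EV, against 81.5 with All-EV. Of the 6 tested antagonists, 3 were 2-fold higher and 1 lower with Ocn-EV, and 0 higher and 1 lower with Prx1-EV. The shares over all tested genes were 6.27% higher and 4.2% lower with Ocn-EV, and 5.12% higher and 3.66% lower with Prx1-EV.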
